A study of Mus musculus with 2 samples.

Results

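The genes described are 10 genes of iron and heme handling, chosen by name: Tfrc, Slc40a1, Slc11a2, Fth1, Ftl1, Hmox1, Alas1, Ireb2, Aco1 and Hfe. Every non-control probe carrying one of these names on both arrays was taken, which gave 16 of the 55680 probes in use, for 10 of 34796 gene names. The study hybridised skeletal muscle RNA of male CD2F1/Slc mice aged 11 weeks to 2 one-colour arrays (label Cy3), 1 per group. The C26 group carried a subcutaneous implant of 1000000 colon 26 (C26) carcinoma cells in 100 µL of PBS, a transplanted tumour line used as a model of cancer cachexia, the muscle and fat wasting that accompanies some cancers. The control group received PBS alone. The labels do not name the muscle, the days since implantation or whether RNA of several mice was pooled.

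With 1 array per group there is no replicate, so no test could be run and the values describe this pair of arrays. A level below is the scaled signal, the processed spot intensity divided by the 75th percentile of the same array. A difference is the log2 ratio of the C26 level over the control level, and its error is propagated from the signal errors in the scanner output, which leave out the spread between animals. Copies of a probe on an array enter this error as if independent, so a probe printed in several copies has a smaller error than a single spot. A gene with several probes is represented by its brightest one, called probe 1, and counts as measured if that probe was, by the scanner's mark, well above background in both muscles. The 75th percentile was a processed signal of 262.3 in control muscle and 249.5 in C26 muscle, and no spot was saturated. All 16 skeletal muscle markers examined, such as Acta1, Ckm and Myh4, were measured on both arrays, with a median log2 ratio of 0.04 that turned below 0 under loess, median scaling and the percentile over detected probes. Their lowest ratios were those of Casq1, the calcium store protein of the sarcoplasmic reticulum, at -0.60 (error 0.20) and Mylpf, a myosin light chain, at -0.32 (error 0.20), and the highest were those of Des at 0.36 (error 0.06) and Myh2 at 0.22 (error 0.20). In bulk RNA fewer cells of a type and less RNA per cell cannot be told apart.

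Cells take up transferrin-bound iron through the transferrin receptor, carry it out of endosomes with a divalent metal transporter, store what is not used in ferritin, and export iron through ferroportin. Iron regulatory proteins bind stem-loops called iron-responsive elements in several of these mRNAs, blocking ferritin translation and stabilising the transferrin receptor mRNA when iron is scarce. Skeletal muscle needs iron for myoglobin, cytochromes and iron-sulfur proteins, and makes heme through a pathway that begins with 5-aminolevulinate synthase.

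The probes of Tfrc carry the largest difference among these genes, so their sequences are given first, 5′ to 3′ as printed on the array. Positions are on mouse build mm9, plus strand, from the array files; no mm9 gene model was used here, so exons are not assigned. Only the first 30 bases are printed for the probes that lie in a single block of the genome, and the whole 60-base probe 3, whose ends lie 217 bases apart on the genome, so that it joins at least a pair of exons.
Tfrc probe 1 (chr16:32632255-32632314): tgagcaagatcacattaacaaagactagtt
Tfrc probe 2 (chr16:32620470-32620529): tcctgctagatggaacatagattcttcatg
Tfrc probe 3 (chr16:32624877-32625093): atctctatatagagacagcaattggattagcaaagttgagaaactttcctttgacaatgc
Probe 1 lies farthest downstream of the 3 and holds a stop triplet in all 3 sense reading frames, so the whole probe cannot be coding sequence. At least 1 sense frame of probe 2 and probe 3 is free of stop triplets.

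Tfrc, the transferrin receptor and the main gate for iron entry, was 2.10-fold lower in the C26 array by probe 1. The level was 6.50 in control muscle and 3.09 in C26 muscle, a log2 ratio of -1.07 (error 0.07). Tfrc was the 1 member of 10 at least 2-fold lower, against 1.15% of all 19700 measured genes, and no member was at least 2-fold higher, against 1.25%. By probe, 1 of 16 was at least 2-fold lower, against 1.14% of 26781 measured probes, and none was 2-fold higher, against 1.16%. Among all measured genes 178 had a lower ratio than Tfrc, or 0.904%.

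Probe 1 was printed in 10 copies per array, of which the scanner software marked 2 as outliers on the control array and none on the C26 array. The 8 usable control copies lay between 6.33 and 6.85 with a median of 6.44, and the 10 C26 copies lay between 2.86 and 3.30 with a median of 3.13. The copies of the 2 arrays did not overlap, also with the marked copies included. How often this held for other probes with several copies was not counted, so whether it is particular to Tfrc is not known. On the log2 scale the SD between usable copies was 0.04 in control muscle and 0.07 in C26 muscle. Over 273 measured probes with at least 8 usable copies per array the median SD was 0.07 in control muscle and 0.06 in C26 muscle. With a spread this small, the copies of a probe part at small differences. Copies share the RNA of their array, so this spread covers the measurement of spots and not the spread between mice.

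**Figure D1:**
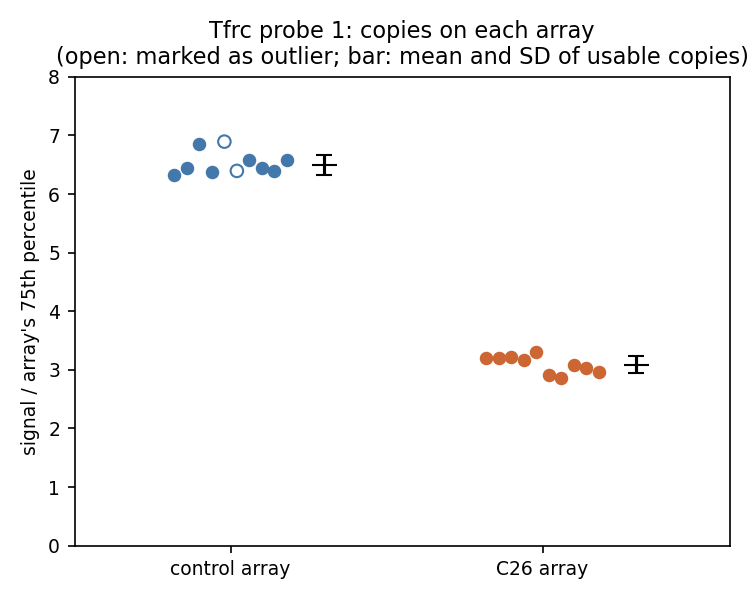
Scaled signal (y axis, signal over the array's 75th percentile) of each printed copy of Tfrc probe 1 on the control array and the C26 array. Filled points are usable copies, open points are copies marked as outliers, and the bars are the mean and SD of usable copies. All 10 C26 copies, at most 3.30, lie below all control copies, at least 6.33. How often the copies of other probes part in this way was not counted.

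The other Tfrc probes had single spots. Probe 2 had a level of 3.37 in control muscle and 1.75 in C26 muscle, a log2 ratio of -0.94 (error 0.20), which differed from that of probe 1 by less than the error of the difference, 0.22. Probe 3 was dim, with levels of 0.16 and 0.14 and a log2 ratio of -0.21 (error 0.27). The ratio of probe 1 was lower than that of probe 3 by 0.87 on the log2 scale, with an error of the difference of 0.28. All 3 probes were thus below 0, probe 3 by less than its error. The mean over the 3 probes was -0.74 with an SD between probes of 0.47, and by that mean Tfrc was not 2-fold lower.

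The RefSeq promoter table (build GRCm38.p6, 250 bases before to 50 after a gene's start) held 10 windows for 7 of the 10 members. Slc40a1, Slc11a2 and Hmox1 had no window and were not searched. ACGTG, the core letters of the element bound by hypoxia-inducible factors, stood in both Tfrc windows and in no other member's, counting both strands. It stood in 19.6% of all 32851 windows of 300 bases. The Tfrc windows overlap and hold the same match, which is shown because Tfrc was the member that differed most, with the motif in capitals on the plus strand.
Tfrc, chr16:32608882-32608911 (GRCm38.p6): ctcggtaggtgtACGTGcggaaggaagtga
The match begins 2 bases before the upstream start and 228 bases before the downstream start. TGACNNNGC, the core of the antioxidant response element, stood on 1 member window, that of Hfe, and on 12.4% of all windows. These matches are letters in a window and were not tied to any factor in these samples.

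The membrane transporters of iron differed by less than their errors. Slc40a1 encodes ferroportin, the only known cellular iron exporter, and its probe (chr1:45965255-45965314, minus strand) had a level of 4.55 in control muscle and 4.62 in C26 muscle. Its log2 ratio was 0.02 (error 0.20), a sign that turned in 5 of 7 other settings. Slc11a2, the divalent metal transporter DMT1, which moves iron out of endosomes, had levels of 1.99 and 1.89 by probe 1 (chr15:100218333-100218392, minus strand), a log2 ratio of -0.08 (error 0.20). Its probe 2 (chr15:100240516-100240575, minus strand) gave 0.23 and 0.26, or 0.16 (error 0.24). The 2 probes of Slc11a2 thus had opposite signs, each within its error. The log2 ratio of Tfrc was lower than that of Slc40a1 by 1.09 (error of the difference 0.22) and lower than that of Slc11a2, with a difference of -0.997 (error of the difference 0.22).

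The iron store genes had like levels on both arrays. Fth1, the ferritin heavy chain with ferroxidase activity, had a level of 609.1 in control muscle and 628.6 in C26 muscle (chr19:10059485-10059544, plus strand), a log2 ratio of 0.05 (error 0.20). Ftl1, the ferritin light chain, had levels of 112.3 and 120.9 by probe 1 (chr7:52713309-52713368, minus strand), a log2 ratio of 0.11 (error 0.20). Its probe 2, whose ends lie at chr7:52714014-52714495, had levels of 9.92 and 10.65 and a ratio of 0.10 (error 0.20). The ratios of both Ftl1 probes differed by 0.0028, and those of Fth1 and Ftl1 by less than the error of their difference, 0.29. The ratio of Fth1 turned below 0 under loess and under the percentile over detected probes, and that of Ftl1 probe 1 under loess, quantile normalization and the deposited value table. Ferritin genes have processed copies in the mouse genome, and whether these probes tell them apart was not tested.

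**Figure D2:**
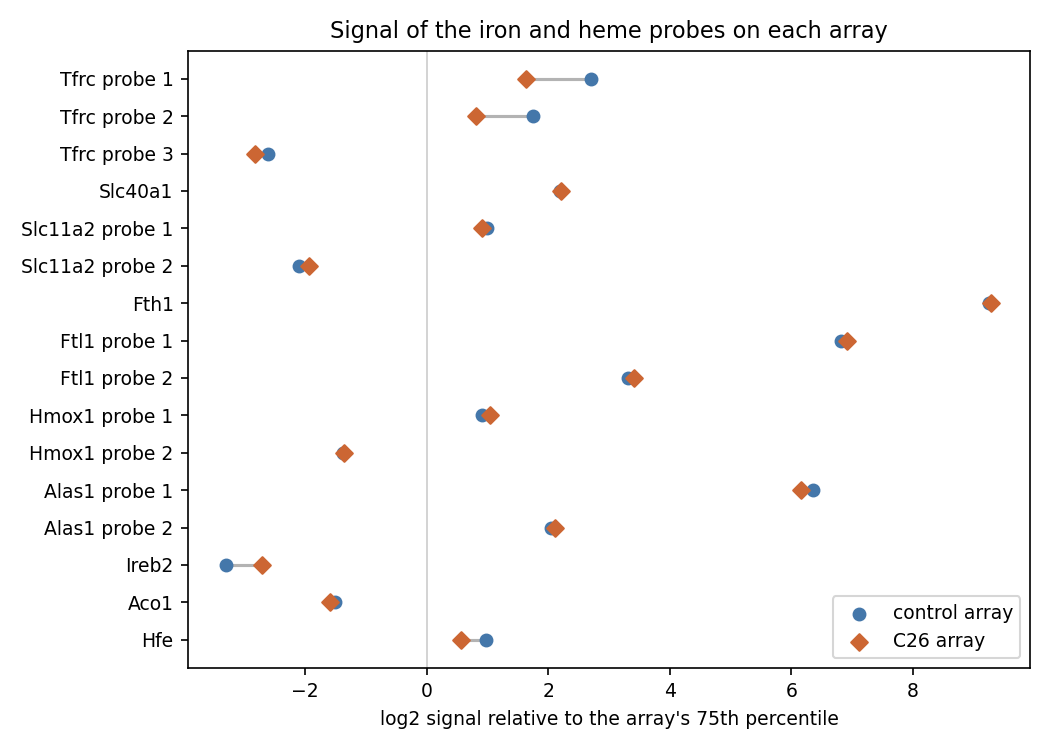
Log2 signal relative to the 75th percentile of its array (x axis) for each of the 16 probes of the iron and heme genes (y axis), with circles for the control array and diamonds for the C26 array. The lines joining the symbols are long for Tfrc probes 1 and 2 and short for the ferritin, Slc40a1, Slc11a2, Hmox1 and Aco1 probes; levels are not comparable between probes.

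The ratios of Hmox1 and Alas1, the members of heme breakdown and synthesis, lay within their errors. Hmox1 encodes heme oxygenase 1, the inducible enzyme that opens the heme ring and frees its iron. Its levels were 1.87 in control muscle and 2.06 in C26 muscle by probe 1 (chr8:77624207-77624266, plus strand), a log2 ratio of 0.14 (error 0.20). Its probe 2 (chr8:77620797-77620856, plus strand) gave 0.38 and 0.39, a ratio of 0.01 (error 0.22) whose sign turned in 4 of 7 other settings. Hmox1 is also a target of NRF2, the regulator of antioxidant genes, and a product of macrophages that clear red cells.

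Alas1 encodes the housekeeping form of 5-aminolevulinate synthase, the first and rate-limiting step of heme synthesis outside red cells. Its levels were 82.3 in control muscle and 71.7 in C26 muscle by probe 1 (chr9:106136284-106136343, minus strand), a log2 ratio of -0.20 (error 0.20). Its probe 2 (chr9:106135796-106135855, minus strand) had levels of 4.14 and 4.34 and a ratio of 0.07 (error 0.20), which turned below 0 in 2 of 7 other settings. The difference between the Alas1 probes, -0.26, was within its error of 0.29. The ratios of Hmox1 and Alas1 differed by 0.34, with an error of 0.29.

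The genes of the iron regulatory proteins had ratios of opposite sign, but that of Aco1 lay within its error of 0. Ireb2 encodes IRP2, which is degraded when iron is ample, and its single probe (chr9:54756566-54756625, plus strand) was dim, with processed signals of 26.7 and 38.1. Its level was 0.10 in control muscle and 0.15 in C26 muscle, 1.502-fold higher, with a log2 ratio of 0.59 (error 0.32). With normexp background correction the ratio was 0.19. Ireb2 was the 1 member at least 1.5-fold higher, against 4.37% of measured genes, and it stood below that threshold under all 5 other background and scaling settings and in the deposited table. By probe that was 1 of 16, against 4.48%. Aco1 encodes IRP1, which doubles as cytosolic aconitase when it holds an iron-sulfur cluster. Its level was 0.35 in control muscle and 0.33 in C26 muscle (chr4:40145780-40145839, plus strand), a log2 ratio of -0.08 (error 0.23). The difference between Ireb2 and Aco1 was 0.66 with an error of 0.39.

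Hfe encodes an MHC class I-like protein that binds transferrin receptor 1 and takes part in iron sensing by hepatocytes. Its level was 1.97 in control muscle and 1.48 in C26 muscle (chr13:23795710-23795769, minus strand), 1.33-fold lower, at a log2 ratio of -0.42 (error 0.20). Hfe and Tfrc were the 2 members whose difference was over 2 times the scanner error, Hfe narrowly, at 2.03 times. With normexp correction the Hfe ratio was -0.34, which is under 2 times that error. The share of all measured genes past 2 errors was not counted, so this count has no background beside it. Of the other 8 members all but Ireb2 lay within 1 error of 0, as did 55.8% of measured genes. The ratio of Hfe lay between -0.48 and -0.34 under the alternatives.

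**Figure D3:**
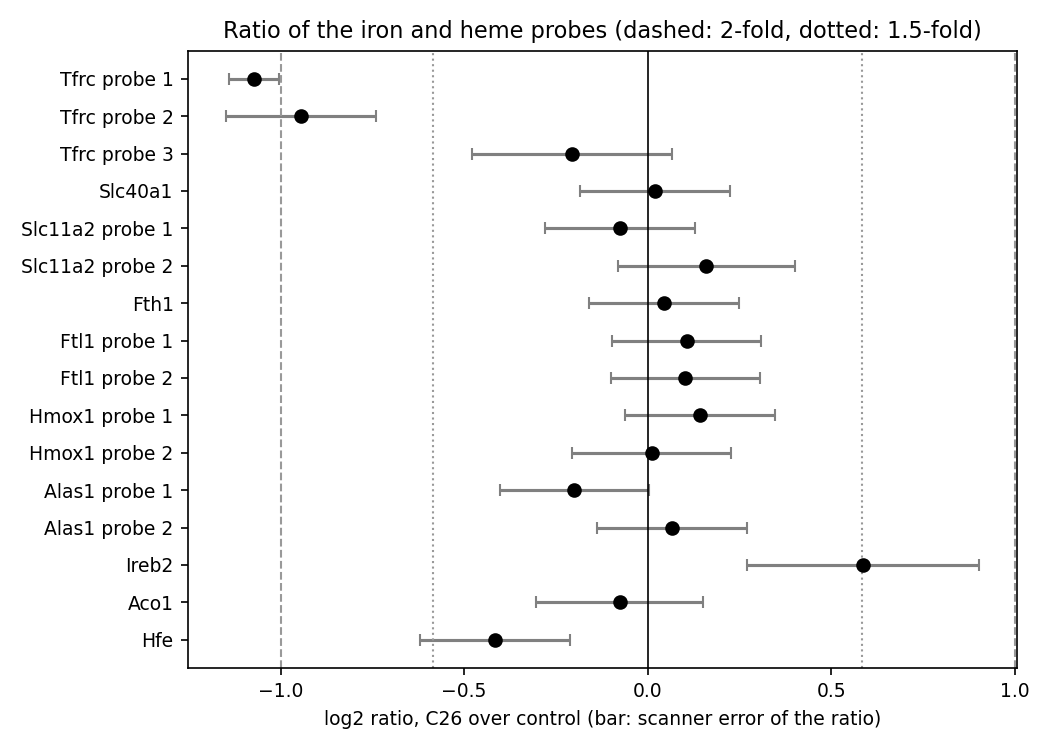
Log2 ratio of C26 over control (x axis) for each of the 16 probes (y axis), with bars for the scanner error of the ratio, which covers spot measurement alone. Tfrc probe 1 at -1.07 passes the dashed 2-fold line, Tfrc probe 2 at -0.94 passes the dotted 1.5-fold line, Ireb2 at 0.59 reaches it, and 12 probes lie within 1 error of 0.

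Over the 10 genes the median log2 ratio was -0.03, against 0.04 over all measured genes. The ratios of 5 members were above 0 and those of 5 below, against 56.4% and 43.6% of measured genes. The median of the members was 0.03 with the mean over probes. Only the Tfrc value passed 1.5-fold downward among the members, against 4.83% of measured genes. The 2 member probes at least 1.5-fold lower were both probes of Tfrc, a size reached by 4.86% of measured probes.

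The wider iron network was described with 7 lists drawn up from textbook knowledge. Of 17 measured genes of iron uptake, storage and trafficking, 1 was 2-fold higher or more, against 1.25% of measured genes. Another 1 was 2-fold lower or more, against 1.15%. The median log2 ratio of these 17 genes was 0.17. Lcn2, lipocalin 2, which sequesters iron-laden bacterial siderophores and is induced in inflammation, had a level of 0.58 in control muscle and 1.45 in C26 muscle, a ratio of 1.32 (error 0.21). The mitochondrial iron importers Slc25a37 (mitoferrin 1) and Slc25a28 (mitoferrin 2) stood at 0.91 (error 0.20) and 0.66 (error 0.20). The level of mitoferrin 1 was 7.01 in control muscle and 13.2 in C26 muscle, and its other probe gave 0.67.

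The lowest ratios of that list were those of Cybrd1, Steap2 and Steap3. Cybrd1, a ferric reductase known from the duodenum, had a level of 0.26 in control muscle and 0.10 in C26 muscle, a ratio of -1.33 (error 0.28). With normexp background correction Cybrd1 was at -0.52 and no longer 2-fold lower. Steap2 and Steap3, metalloreductases of which Steap3 serves the transferrin cycle of red cell precursors, had -0.76 (error 0.33) and -0.33 (error 0.20). With normexp correction Steap2 was at -0.27, and the other probe of Steap3 gave -0.56. Trf, transferrin itself, stood at 0.41 (error 0.20), and the second transferrin receptor, Trfr2, was not well above background on either array.

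Of 15 measured genes of the hepcidin pathway, 1 was at least 2-fold higher and none lower, against 1.25% and 1.15% of measured genes. The median of the list was 0.22. Hamp2, a hepcidin gene of the mouse, had a level of 0.71 in control muscle and 1.85 in C26 muscle, a log2 ratio of 1.38 (error 0.21). Hamp, its close relative that encodes the hormone hepcidin, which closes ferroportin, was not well above background on either array, and whether the Hamp2 probe tells both apart was not tested. The BMP target genes Id1 and Smad7 stood at 0.88 (error 0.20) and 0.87 (error 0.21). The lowest members were B2m, the partner chain of Hfe, at -0.35 (error 0.14), Hfe2, hemojuvelin, which is made in muscle and liver, at -0.31 (error 0.20), and Acvr1 at -0.14 (error 0.20).

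The median of 12 measured heme synthesis genes besides Alas1 was 0.08. None was at least 2-fold lower and 1 was at least 2-fold higher, against 1.15% and 1.25% of measured genes. That gene was Alas2, the erythroid form of 5-aminolevulinate synthase, whose level was 5.68 in control muscle and 28.2 in C26 muscle, 4.96-fold higher, at a ratio of 2.31 (error 0.20). The housekeeping enzyme Alas1 stood at -0.20. All other members lay between -0.07 and 0.28, with Fech, which inserts the iron, at 0.28 (error 0.20), Alad at 0.17 (error 0.20), Tmem14c at -0.07, Uros at -0.05 and Clpx at -0.04.

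The median of 13 measured genes of heme breakdown, transport and scavenging, -0.01, turned above 0 when dim probes were kept and when probes were averaged. Of these genes 1 was at least 2-fold higher and none lower, against 1.25% and 1.15% of measured genes. Hpx, hemopexin, the plasma protein that binds free heme, was that gene, with a level of 0.14 in control muscle and 1.42 in C26 muscle, a ratio of 3.29 (error 0.25) and 2.17 under normexp correction. The heme exporter Abcg2 stood at 0.67 (error 0.20) and Hp, haptoglobin, which binds free hemoglobin, at 0.52 (error 0.20). Slc46a1, a transporter of folate and heme, had -0.40 (error 0.21), Lrp1, the receptor for hemopexin-bound heme, -0.19 (error 0.20) and Mfsd7c (Flvcr2) -0.18 (error 0.35). Hmox2, the constitutive heme oxygenase, had -0.01 (error 0.20), and Bach1, a heme-sensing repressor of Hmox1, 0.51 (error 0.20).

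Genes of iron-sulfur cluster assembly and heme proteins had ratios between -0.31 and 0.32. None of 20 measured genes of iron-sulfur cluster assembly was 1.5-fold different, against 4.37% of measured genes higher and 4.83% lower. In a list this small, none is near those shares. The median of these 20 genes, 0.03, turned below 0 under 4 scalings and in the deposited table. Bola3 stood at -0.12 and Isca1 at -0.08, against Hscb at 0.26, Iscu, the scaffold protein, at 0.30 and Ciapin1 at 0.32. None of 10 measured heme proteins and their partners was 1.5-fold different either, which is also near those shares. Their median was -0.13, and 7 had ratios below 0, against 43.6% of measured genes. Cyc1 stood lowest at -0.31, before Cyb5b at -0.26 and Cycs, cytochrome c, at -0.25, each with an error of 0.20. Cat, catalase, had 0.11, Cyb5r3, a reductase, 0.05, and Mb, myoglobin, 0.14 (error 0.20), a sign that turned in 1 of 7 other settings. Of 5 other mRNAs listed as carrying an iron-responsive element, Alas2 was at least 2-fold higher, against 1.25% of measured genes. Epas1 had 0.28, Cdc42bpa 0.07 and Sdhb, whose element is known from Drosophila, -0.16.

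**Figure D4:**
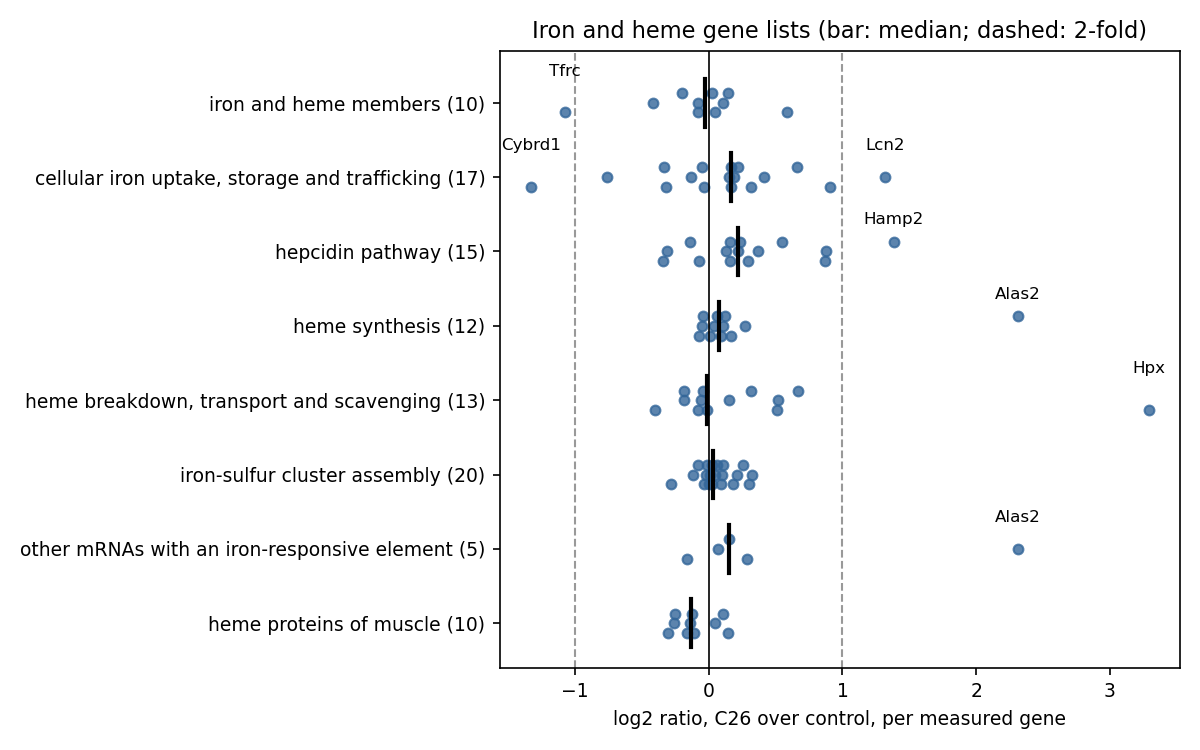
Log2 ratio of C26 over control (x axis) for each measured gene of the 10 members and of the 7 lists of related genes (y axis, number measured in parentheses), with a bar at the median of each list and dashed lines at 2-fold. The medians lie between -0.13 and 0.22, and the genes past 2-fold are Tfrc and Cybrd1 on the low side and Lcn2, Hamp2, Alas2 and Hpx on the high side.

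Markers of other cell types differed between the arrays. Red cell precursors make most of the body's heme and carry much transferrin receptor. Of 9 measured erythroid markers 5 were at least 2-fold higher and none lower, against 1.25% and 1.15% of measured genes. Their median log2 ratio was 1.37. Their summed level was 1578 in control muscle and 3255 in C26 muscle, and most of it came from the globin probes. Slc4a1 had 2.43 and Alas2 2.31, while Tspo2 had 0.46 and Hemgn 0.14. Ahsp and Spna1 cleared background in C26 muscle alone. Ahsp was at least 6.20-fold higher and Spna1 at least 1.86-fold. The other 5 of 16 markers, among them Epb4.2, Klf1, Rhag and Kel, were not well above background on either array. Alas2 is itself on the erythroid list. The part of red cells in the Alas2, Slc25a37 and Tfrc values was not tested.

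Macrophages recycle iron from red cells and hold much ferroportin, ferritin and heme oxygenase 1. Of 13 measured macrophage markers 2 were at least 2-fold lower and none higher, against 1.15% and 1.25% of measured genes. Their median was -0.17, and 11 were below 0, against 43.6% of measured genes. Their summed level was 59.7 in control muscle and 47.8 in C26 muscle. Cd68 had -1.35 and Ms4a7 -1.29, whereas Mertk had 0.22 and Marco 0.68. Cd163 cleared background in C26 muscle alone, and Fcgr1 and Timd4 in neither. The Cd163 probe was dim on both arrays, with levels of 0.035 in control muscle and 0.063 in C26 muscle, and no fold could be bounded. Slc40a1, Fth1, Ftl1 and Hmox1 had ratios between 0.02 and 0.14. The part of macrophages in the values of Tfrc and of these genes was not tested.

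Hepatocytes are the main source of hemopexin, haptoglobin, transferrin and hepcidin. Of 6 measured hepatocyte markers 4 were at least 2-fold higher and none lower, against 1.25% and 1.15% of measured genes. Their median log2 ratio was 1.15. Their summed level was 35.6 in control muscle and 61.7 in C26 muscle. Alb had 1.86, Ahsg 1.46, Ttr 0.34 and Apoa2 0.06, and Apoa1, Hnf4a and Apob cleared background in C26 muscle alone. Apob did not differ, with a level of 0.078 in control muscle and 0.077 in C26 muscle. Apoa1 was at least 2.42-fold higher and Hnf4a at least 1.196-fold. The part of liver-type transcripts in the Hpx and Hamp2 values was not tested.

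Of 6 measured neutrophil markers 2 were at least 2-fold higher, against 1.25% of measured genes. These were S100a8 at 2.46 and S100a9 at 2.35, beside Camp at -0.02 and Csf3r at -0.26. Retnlg cleared background in C26 muscle alone and was at least 2.79-fold higher, and Ngp, Ltf and Mpo cleared it in neither. The median of that list was 0.18, or -0.01 with dim probes kept, and its summed level was 131.5 in control muscle and 115.2 in C26 muscle. Most of that sum was the Csf3r probe, at 126.2 in control muscle and 105.2 in C26 muscle, while S100a9 had 0.92 and 4.69 and S100a8 0.20 and 1.12. Lcn2 is abundant in neutrophil granules, and the part of neutrophils in its value was not tested. The 10 endothelial markers had a median of 0.38, from Kdr at 0.01 and Emcn at 0.04 to Vwf at 0.86 and Cldn5 at 1.30, and a summed level of 90.0 in control muscle and 121.1 in C26 muscle. The other probe of Kdr gave -0.63 and that of Vwf 0.39. Of 10 epithelial and carcinoma markers 5 were measured, with a median of 0.11, from Krt19 at -0.84 and Cdh1 at -0.02 to Cldn7 at 0.53 and Lgals4 at 0.58, and a summed level of 3.07 in control muscle and 4.03 in C26 muscle; Epcam, Krt8, Krt20, Vil1 and Cdx2 were not well above background on either array.

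**Figure D5:**
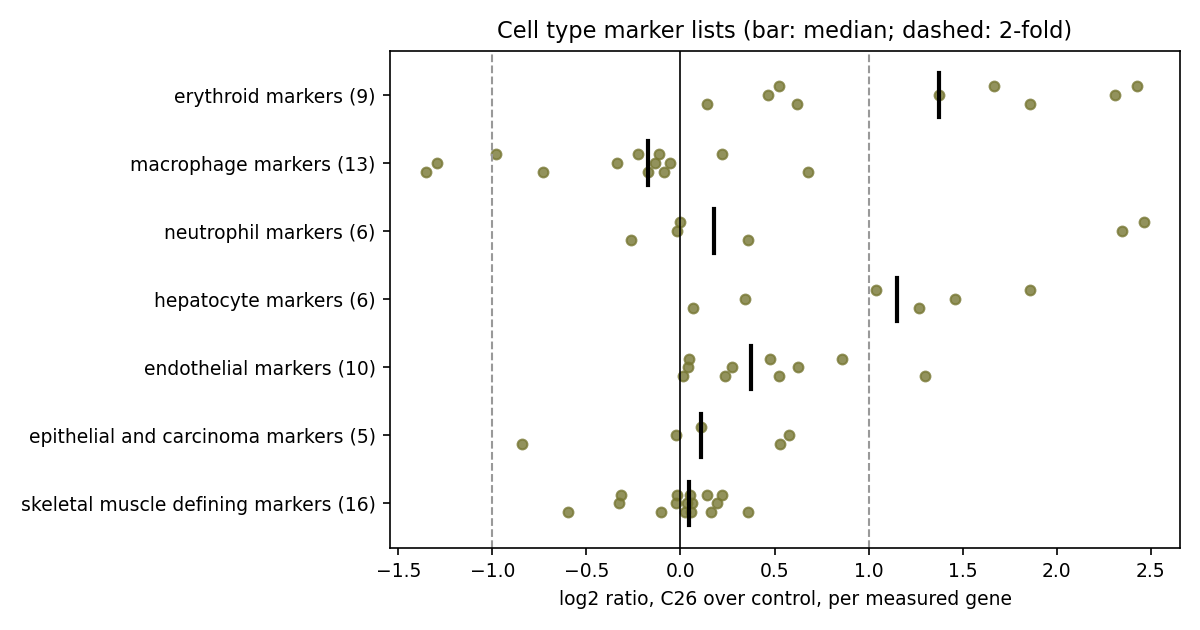
Log2 ratio of C26 over control (x axis) for each measured marker of 7 cell types (y axis, number measured in parentheses), with a bar at the median and dashed lines at 2-fold. Erythroid markers lie highest with a median of 1.37, hepatocyte markers have 1.15, macrophage markers lie lowest at -0.17, and skeletal muscle markers have 0.04. With no filter on dim probes the order changed at both ends. Hepatocyte markers then had 1.27 and erythroid markers 1.09, and epithelial and carcinoma markers had -0.18 and macrophage markers -0.13.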

How the data were processed

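Total RNA of skeletal muscle was hybridised to 1 array per group. The scanner images were extracted with Agilent Feature Extraction, version 10.7.1.1 per the file headers and 9.5.1.1 per the submitters' processing notes. The deposited intensity values are, per the file headers, spot signals on a linear scale with spatial background detrending and multiplicative detrending within the array, and with a surrogate value where too low to measure (31.9% of non-control spots for control, 25.6% for C26). A deposited table of 1 intensity per probe had a median of 19.75 in both columns, was not centred, and lay within 0.01 on the log2 scale of quantile-normalized signals for 99.8% of its values in each column; no source used here gives its making.

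Outlier-marked spots were left out (110 control, 91 C26), log2 signals of a probe's spots were averaged, and the array's 75th percentile over probes was subtracted. Of 34796 gene names 19700 were measured, with a median error of 0.20. The number of arrays limits the precision. List names without a probe were matched to older symbols in the RefSeq gene table. Named are all members with every probe, genes past 2-fold and the 3 highest and lowest of each iron or heme list, and the 2 highest and lowest markers, except a few genes that are not reported here; Trf, Trfr2, Hamp, Hmox2, Bach1, Ahsp, Spna1, Apoa1, Hnf4a, Apob, Retnlg, Cd163 and the undetected markers named were added after their values were seen. "At least" folds divide the brighter level by the dim probe's own level or, where higher, by the lowest level well above background on its array (processed signals 18.5 and 14.1). Members and lists were chosen with earlier results of these data known. Scalings were tested on simulated data. Alternatives were normexp (offset 50), quantile, median, detected-probe percentile and loess (span 0.3) scaling, no or a stricter dim filter (signal of at least 100), the mean over probes and the deposited table. Python 3.11.15, numpy 2.4.6, pandas 2.3.3, statsmodels 0.14.6, matplotlib 3.10.9, R 4.3.3 and limma 3.58.1 were used.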

Additional observations from a re-analysis of the deposited data

How the results depend on the processing

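Of 288 values recomputed for 29 results under 10 alternatives, 275 stayed within the scanner error (or, for counts, within 1.5 times), 13 did not and no ratio past 2-fold changed sign. Keeping outlier-marked spots was an alternative chosen after seeing the data. With the mean over all probes Tfrc stood at -0.74 and the count of members at least 2-fold lower was 0 in place of 1; under the alternatives that kept the brightest probe Tfrc lay between -1.14 and -1.03. The count of members at least 1.5-fold higher was 0 in place of 1 with normexp correction, quantile normalization, median scaling, the percentile over detected probes, loess, the deposited value table and the stricter filter, which left out Ireb2 and Aco1. The Ireb2 ratio was 0.19 with normexp correction. The median of the erythroid markers was 1.09 with no filter on dim probes. The median of the epithelial and carcinoma markers was -0.18 with no filter and 0.55 with the stricter filter; both filters alter the set of genes measured, and the cause of the other shifts was not tested. Over all measured genes the counts at least 2-fold higher and lower were 131 and 65 with normexp correction, 158 and 90 with the stricter filter and 1579 and 1320 with no filter, against 246 and 227. The share of higher genes among both was higher with normexp correction and lower under quantile, median, detected-probe percentile and loess scaling. It was 211 higher and 279 lower with the percentile over detected probes, and 222 and 245 with quantile normalization. No paired analysis was possible because each group has 1 array. Signal over background limits the ratios of the dimmest member probes, those of Ireb2, Tfrc probe 3, Slc11a2 probe 2, Aco1 and Hmox1 probe 2.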
